A study of Mus musculus with 24 samples.

Results

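The neutrophil-attracting CXC chemokines were taken as Cxcl1, Cxcl2 and Cxcl3, the 3 genes with these symbols among the 24273 genes of a normalised RNA sequencing table. They were followed in mouse BMDMs, bone marrow cells that were cultured in L-cell conditioned medium until they had become macrophages. Cells of C57BL/6 mice were left unstimulated (0 h) or were stimulated for 0.5, 1 or 2 h with 100 ng/ml of lipopolysaccharide (LPS), a bacterial cell wall component that is sensed by TLR4. By the study's description both genotypes carried LysM-Cre, a Cre recombinase gene at the lysozyme locus Lyz2 that is active in myeloid cells. The FosKO cells had Fos fl/fl, so that Cre was meant to delete Fos, which encodes a subunit of the transcription factor AP-1. The control cells, called LysM-Cre, are given with the driver alone in the design text and with a floxed and an intact Fos allele as well in the study's description, and the values cannot settle which applied. Each of the 8 groups of genotype and time had 3 libraries, 24 in all. The sources used here give no age of the mice and do not say which libraries came from the same animal, so p-values measure the spread between these libraries only.

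Cxcl1, Cxcl2 and Cxcl3 encode small secreted proteins that carry the ELR motif before the paired cysteines. They act through the receptor CXCR2, which neutrophils display, and draw neutrophils from the blood to sites of infection or injury. Macrophages are a known source of them soon after TLR4 is engaged. Their promoters are textbook targets of NF-kB, and their mRNAs are short-lived because AU-rich elements recruit decay factors such as tristetraprolin.

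The genes lie in a cluster of CXC chemokine genes on mouse chromosome 5, all on the forward strand. On GRCm38 (mm10), Cxcl3 (ENSMUSG00000029379) spans 90786103 to 90789600, Cxcl1 (ENSMUSG00000029380) 90891241 to 90893115 and Cxcl2 (ENSMUSG00000058427) 90903871 to 90905938. Each is protein coding with 4 exons in its principal transcript, and no other annotated gene overlaps any of them. The principal transcripts are 953 bases long for Cxcl1, 1109 for Cxcl2 and 1016 for Cxcl3. Cxcl2 and Cxcl3 share an identical run of 110 bases that begins just before the start codon, whereas Cxcl1 shares at most 23 bases with either. Of the 50-base windows, 61 of 1060 in Cxcl2 (5.75%) and 61 of 967 in Cxcl3 (6.31%) occur in the other, none of the 904 in Cxcl1 occurs in another member, and no other gene shares one. Reads from that run could have been divided between Cxcl2 and Cxcl3 by the authors' estimation.

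The promoters are shown because the 3 genes all respond to LPS and lie in 1 cluster, so that a reader can see which letters they have in common. Each sequence is the 250 bases before the RefSeq transcript start (GRCm38.p6), read 5′ to 3′ on the forward strand. The gene spans given above come from GENCODE and do not begin at exactly the same bases as the RefSeq transcripts. The windows cover chr5:90890995-90891244 for Cxcl1, chr5:90903649-90903898 for Cxcl2 and chr5:90785851-90786100 for Cxcl3. Capitals mark GGGAATTTCCC, which holds a form of the NF-kB (κB) motif, and ATAAAAGG, the only 2 runs of 8 or more letters that all 3 windows share on the forward strand.
Cxcl1: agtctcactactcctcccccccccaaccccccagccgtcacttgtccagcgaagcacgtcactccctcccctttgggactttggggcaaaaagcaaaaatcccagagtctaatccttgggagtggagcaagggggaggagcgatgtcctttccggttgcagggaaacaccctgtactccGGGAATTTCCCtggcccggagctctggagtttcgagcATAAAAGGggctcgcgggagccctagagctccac
Cxcl2: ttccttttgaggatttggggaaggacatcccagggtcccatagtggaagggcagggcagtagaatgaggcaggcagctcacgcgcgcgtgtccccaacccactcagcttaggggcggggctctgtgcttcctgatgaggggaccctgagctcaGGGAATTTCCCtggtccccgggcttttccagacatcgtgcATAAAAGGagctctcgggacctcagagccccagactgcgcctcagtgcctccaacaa
Cxcl3: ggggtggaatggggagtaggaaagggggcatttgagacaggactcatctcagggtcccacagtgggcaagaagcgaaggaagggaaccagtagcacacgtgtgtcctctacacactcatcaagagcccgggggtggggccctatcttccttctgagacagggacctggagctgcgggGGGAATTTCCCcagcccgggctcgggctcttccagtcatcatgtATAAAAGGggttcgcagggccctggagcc
The longer run stood at -71 to -61 in Cxcl1, -97 to -87 in Cxcl2 and -73 to -63 in Cxcl3, with -1 as the base before the start. On either strand it occurred in 14 of 32851 promoters of this length (0.0426%). ATAAAAGG stood at -34 to -27, -57 to -50 and -29 to -22 in the same order of genes, and occurred in 507 promoters (1.54%). In the Cxcl3 promoter it overlaps TATAAA at -30 to -25, which neither Cxcl1 nor Cxcl2 held and which 12.4% of promoters held. The GC box letters GGGCGG were found in the Cxcl2 promoter alone of the 3, at -139 to -134, and in 32.7% of all promoters. None of the 3 windows held the AP-1 letters TGANTCA (6.75% of promoters), the CRE letters TGACGTCA (1.55%) or the C/EBP letters TTNNGCAA (9.56%), searched on both strands. A match describes letters and not a site that is bound, and the lack of a match says only that these letters are not in this window.

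The values are log2 normalised expression as deposited, on which 2-fold is a step of 1. Within groups of 3 libraries the SD of the median gene was 0.057 to 0.083, and the number of reads behind a value is unknown. A gene was called at a Benjamini-Hochberg adjusted p under 0.05 in a limma fit to all 13901 tested genes and 24 libraries. All 8 macrophage markers were high in every library (9.07 to 15.38). Of the neutrophil and precursor genes, Ly6g and Elane lay between -2.22 and -2.20, and Retnlg and Camp between -0.45 and 2.11. S100a8, S100a9, Ngp and Ltf lay between 3.05 and 5.82, and Csf3r between 9.08 and 10.81. The gene for 18S ribosomal RNA, Rn18s-rs5, lay at 16.65 to 17.00 in 5 libraries of the 0.5 h and 1 h groups and at 18.57 to 19.39 in the other 19. The low libraries were 1 of each genotype at 0.5 h, and 2 of LysM-Cre and 1 labelled FosKO at 1 h. Low 18S was thus unevenly spread over the times and, at 1 h, over the genotypes. Fos mRNA was lower under the label FosKO than in LysM-Cre at 0.5 h only, and was higher at 0, 1 and 2 h. Its group mean moved through 11.11, 13.52, 11.15 and 9.52 at 0, 0.5, 1 and 2 h in LysM-Cre and through 12.60, 12.75, 12.78 and 12.80 in the libraries labelled FosKO. Since the table has a single value for Fos, reads from its floxed and other exons cannot be told apart and the level is no check of the deletion. The study reports more mRNA of Ifnb1, the interferon beta gene, in LPS-treated FosKO than LysM-Cre cells by RNA sequencing and by qRT-PCR. It also reports more of the protein by ELISA. Whether the genotype labels were exchanged was not tested, and an exchange would turn the sign of every difference between the genotypes given here. Lyz2 also differed, with 10.87 to 11.57 in LysM-Cre libraries and 16.08 to 16.33 in the libraries labelled FosKO. The study does not say how many LysM-Cre alleles either genotype carried. Whether the genotypes differed in that number as well as in Fos was not tested.

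The first question was how far and how fast LPS raised each chemokine mRNA in control macrophages. Cxcl1 and Cxcl2 rose within 0.5 h, peaked at 1 h and had fallen back in part by 2 h. Cxcl3 rose little by 0.5 h and was still climbing at 2 h, when its rise was larger than that of the other two.

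Cxcl1 encodes KC, the chemokine often measured as the mouse counterpart of human CXCL8. In LysM-Cre its values were 8.16, 8.16 and 8.19 before LPS, 11.51, 12.15 and 12.01 after 0.5 h, 12.73, 13.21 and 13.25 after 1 h, and 11.90, 12.50 and 12.40 after 2 h. Every stimulated library lay above every unstimulated one, and replicate 1 was the lowest of its group at each LPS time, with deviations from the group mean of -0.38, -0.33 and -0.36. LPS raised the mean from 8.17 ± 0.02 (SD, n = 3) to 11.89 ± 0.34 at 0.5 h, 13.06 ± 0.29 at 1 h and 12.27 ± 0.32 at 2 h. These are rises of 13.2-fold, 29.8-fold and 17.2-fold, with adjusted p of 6.25e-14, 1.51e-16 and 1.24e-15 (limma). By size of rise Cxcl1 ranked 3 at 0.5 h, 1 at 1 h and 29 at 2 h among the 13901 tested genes. The share of all tested genes called in these comparisons was 7.24% at 0.5 h, 35.8% at 1 h and 60.8% at 2 h.

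Cxcl2 encodes MIP-2, a potent neutrophil attractant. Unstimulated LysM-Cre libraries had 11.05, 11.02 and 11.05, those stimulated for 0.5 h had 14.43, 14.60 and 14.58, for 1 h 15.18, 15.26 and 15.40, and for 2 h 14.07, 14.20 and 14.21. The 4 times did not overlap, and they ran in the order 0 h, 2 h, 0.5 h and 1 h from low to high. The rises over 0 h were 11.3-fold at 0.5 h (log2 3.50, SE 0.06, adjusted p = 1.21e-19), 18.9-fold at 1 h (adjusted p = 2.44e-21) and 8.71-fold at 2 h (adjusted p = 1.36e-19, limma). Cxcl2 ranked 5, 9 and 67 by size of rise.

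Cxcl3, the third of the group, started far lower. Its LysM-Cre values were 4.87, 4.90 and 4.68 without LPS. They were 5.40, 5.11 and 5.28 by 0.5 h, 7.54, 7.46 and 7.47 by 1 h, and 9.47, 9.58 and 9.54 by 2 h, so that each time lay wholly above the one before. The rise was 1.36-fold at 0.5 h (log2 0.44, SE 0.09, adjusted p = 0.0040), 6.38-fold at 1 h (adjusted p = 2.57e-15) and 26.2-fold at 2 h (adjusted p = 1.03e-19, limma). The early rise of Cxcl3 was not called when only the groups compared entered the fit (adjusted p = 0.0609). Cxcl3 ranked 284, 50 and 13 by size of rise.

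**Figure D1:**
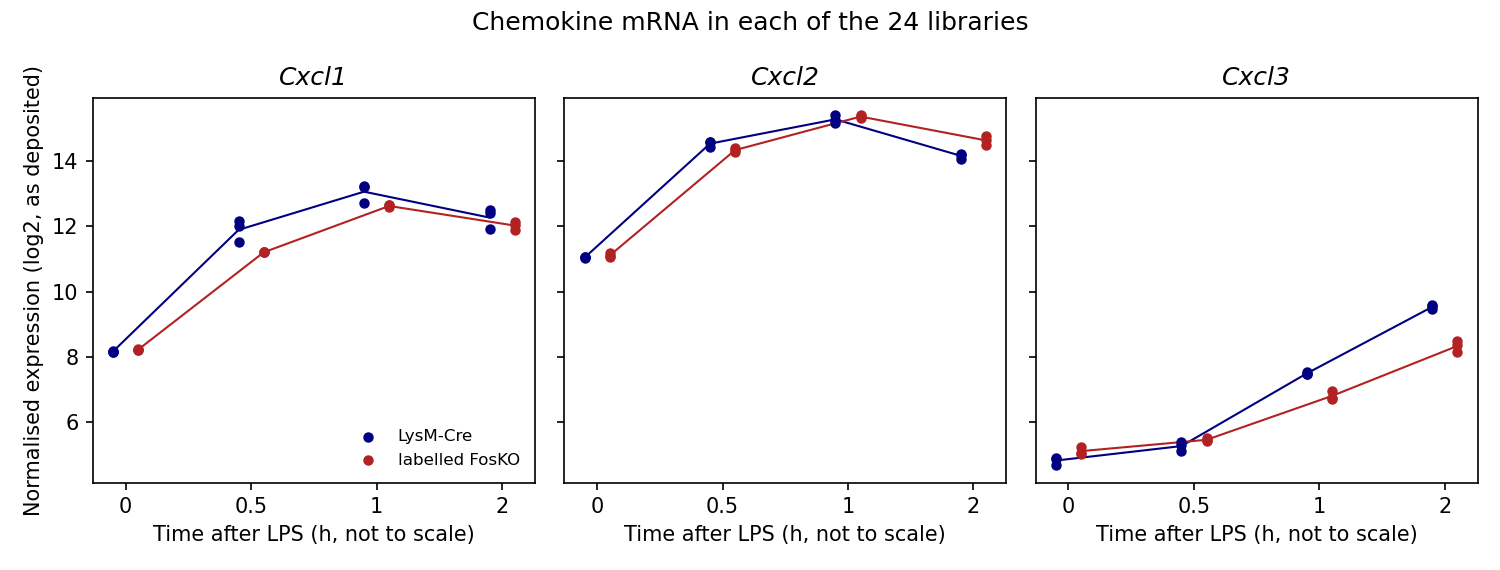
Normalised log2 expression (vertical axis, as deposited) of Cxcl1, Cxcl2 and Cxcl3 in each of the 24 libraries against hours after LPS (horizontal axis, not to scale), with points for libraries and lines through the group means of LysM-Cre (blue) and the libraries labelled FosKO (red). Cxcl1 and Cxcl2 peak at 1 h in both genotypes, while Cxcl3 climbs until 2 h, to 9.53 in LysM-Cre (blue) against 8.33 in red.

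The steps between neighbouring LPS times showed the same split among the genes. From 0.5 to 1 h in LysM-Cre, Cxcl1 rose by 1.17, Cxcl2 by 0.74 and Cxcl3 by 2.23 on the log2 scale, and 26.8% of tested genes were called (adjusted p for the 3 genes between 1.20e-13 and 2.60e-06, limma). From 1 to 2 h Cxcl1 fell by 0.79 (adjusted p = 1.13e-04) and Cxcl2 fell by 1.12 (adjusted p = 7.03e-12), whereas Cxcl3 rose by 2.04 (adjusted p = 2.45e-13), with 52.3% of tested genes called. The Cxcl1 step from 1 to 2 h was -0.46 with adjusted p = 0.0751 when the 5 libraries with low 18S were left out.

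Per kilobase of transcript, so that genes can be compared, the order of levels was Cxcl2, then Cxcl1, then Cxcl3 in 24 of 24 libraries. Cxcl2 exceeded Cxcl1 by 1.48 to 2.98 on the log2 scale. Cxcl1 exceeded Cxcl3 by 2.53 to 7.14. In LysM-Cre the mean gap was widest at 0.5 h and narrowest at 2 h. In the libraries labelled FosKO it was narrowest at 0 h and widest at 1 h. Its excess over the 0.5 h gap was below the SD at 1 h (0.12) and above the SD at 0.5 h (0.05).

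The libraries labelled FosKO showed the same sequence of early and late genes. All 3 genes were called at each LPS time against 0 h, where 5.92%, 32.6% and 62.1% of tested genes were called at 0.5, 1 and 2 h. Cxcl1 rose 7.90-fold, 21.2-fold and 14.0-fold (ranks 9, 6 and 31), and Cxcl2 rose 9.41-fold, 19.2-fold and 11.6-fold (ranks 5, 8 and 45). Cxcl3 rose 1.27-fold, 3.23-fold and 9.35-fold (ranks 437, 146 and 66). The 0.5 h rise of Cxcl3 (log2 0.35, adjusted p = 0.0320, limma) was the weakest of these. It was no longer called with only the groups compared in the fit (adjusted p = 0.208), without the low 18S libraries (0.37, adjusted p = 0.0876), or without 0 h replicate 1 (0.32), 0 h replicate 2 (0.31), 0.5 h replicate 2 (0.32) or 0.5 h replicate 3 (0.35). From 0.5 to 1 h all 3 genes rose, by 1.42 for Cxcl1, 1.03 for Cxcl2 and 1.35 for Cxcl3 (27.5% of tested genes called). From 1 to 2 h Cxcl1 fell by 0.60 and Cxcl2 fell by 0.73, whereas Cxcl3 rose by 1.53 (50.7% of tested genes called).

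The next question was whether the level of each chemokine differed between the genotypes at a given time, the comparison by which the study looked for genes controlled by FOS. The 3 genes did not move together. In the libraries labelled FosKO, Cxcl1 was lower at 0.5 and 1 h, Cxcl2 was slightly lower at 0.5 h and higher at 2 h, and Cxcl3 was slightly higher at 0 h and much lower at 1 and 2 h. In bulk RNA, fewer cells that make an mRNA and less of it per cell cannot be told apart.

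Before LPS, Cxcl1 had 8.22, 8.21 and 8.23 in the libraries labelled FosKO, all above the LysM-Cre values but by only 0.05 (95% confidence interval -0.25 to 0.36, adjusted p = 0.822, limma). Cxcl2 had 11.08, 11.05 and 11.18, a difference of 0.06 (interval -0.07 to 0.20, adjusted p = 0.484) that was 0.0275 without FosKO replicate 3 and -0.0024 after quantile normalisation. Cxcl3 had 5.05, 5.03 and 5.24, above all 3 LysM-Cre values, and was the 1 member called among the 35.4% of tested genes called at 0 h. Its difference was 0.29 (SE 0.09, adjusted p = 0.0221). That call was lost without LysM-Cre replicate 3 (0.22, adjusted p = 0.118), without FosKO replicate 3 (0.22, adjusted p = 0.122) and with only the groups compared in the fit (adjusted p = 0.0948).

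At 0.5 h, 40.9% of tested genes were called. Cxcl1 had 11.20, 11.21 and 11.20 in the libraries labelled FosKO, below all 3 LysM-Cre values. The difference was -0.69 (SE 0.15, adjusted p = 7.52e-04, limma), a level of 0.620 times that of LysM-Cre. It was -0.63 among the libraries with high 18S (2 against 2) and -0.81 between the pair with low 18S. Cxcl2 had 14.33, 14.29 and 14.39, again below all LysM-Cre values, with a difference of -0.20 (SE 0.06, adjusted p = 0.0175). The Cxcl2 call was lost without LysM-Cre replicate 2 (-0.17), LysM-Cre replicate 3 (-0.18) or FosKO replicate 2 (-0.17) and among the libraries with high 18S (-0.17, adjusted p = 0.104). After quantile normalisation the Cxcl2 difference was -0.34 (adjusted p = 2.18e-04, limma). Cxcl3 had 5.40, 5.51 and 5.44, which lay above the LysM-Cre values by 0.19 (interval -0.01 to 0.39) and was not called (adjusted p = 0.117). It was 0.11 without LysM-Cre replicate 2, and it was called after quantile normalisation (0.26, adjusted p = 0.0308).

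At 1 h, when Cxcl1 and Cxcl2 peaked, 33.9% of tested genes were called. Cxcl1 had 12.64, 12.58 and 12.65, just below the lowest LysM-Cre library. The difference of -0.44 was called (SE 0.15, adjusted p = 0.0258, limma), but it depended on single libraries. It was not called without LysM-Cre replicate 2 (-0.37), LysM-Cre replicate 3 (-0.34), FosKO replicate 2 (-0.42) or FosKO replicate 3 (-0.45), and it was -0.11 among the libraries with high 18S (adjusted p = 0.759). That set holds only LysM-Cre replicate 1 of the controls at 1 h, and the low set gave -0.59. Cxcl2 had 15.37, 15.33 and 15.40, which overlapped LysM-Cre (0.08, interval -0.05 to 0.22, adjusted p = 0.339). This small value was 0.035 without LysM-Cre replicate 1, 0.14 without LysM-Cre replicate 3 and 0.18 among the libraries with high 18S, and was called in none of them. After quantile normalisation it turned to -0.018, also not called.

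Cxcl3 had 6.71, 6.73 and 6.95 at 1 h in the libraries labelled FosKO, all well below the LysM-Cre libraries. The difference was -0.69 (SE 0.09, adjusted p = 8.20e-06, limma), a level of 0.619 times the control. It was -0.70 among the libraries with high 18S and -0.75 among those with low 18S. No left-out library took it outside -0.77 to -0.65.

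At 2 h, 44.6% of tested genes were called. Cxcl1 had 12.03, 11.90 and 12.14, which overlapped LysM-Cre, and its difference of -0.25 was not called (interval -0.55 to 0.06, adjusted p = 0.193, limma). Without LysM-Cre replicate 1, the low library, it was -0.43 and was called (adjusted p = 0.0203), and so it was after quantile normalisation (-0.36, adjusted p = 0.0413). Over the 6 left-out libraries it ran from -0.43 to -0.13. Cxcl2 had 14.65, 14.48 and 14.77, above all LysM-Cre values, with a difference of 0.47 (SE 0.06, adjusted p = 4.36e-06) or 1.39-fold. After quantile normalisation it was 0.22 and was still called (adjusted p = 0.0092).

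Cxcl3 at 2 h gave the largest difference between the genotypes among the 3 genes and 4 times. The libraries labelled FosKO had 8.35, 8.15 and 8.49, all well below the lowest LysM-Cre library. The difference was -1.20 (SE 0.09, adjusted p = 3.56e-09, limma), a level of 0.435 times that of LysM-Cre. All libraries at 2 h were in the set with high 18S. Over 9 alternative settings it ran from -1.20 to -1.13, and over the 6 left-out libraries from -1.28 to -1.11.

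**Figure D2:**
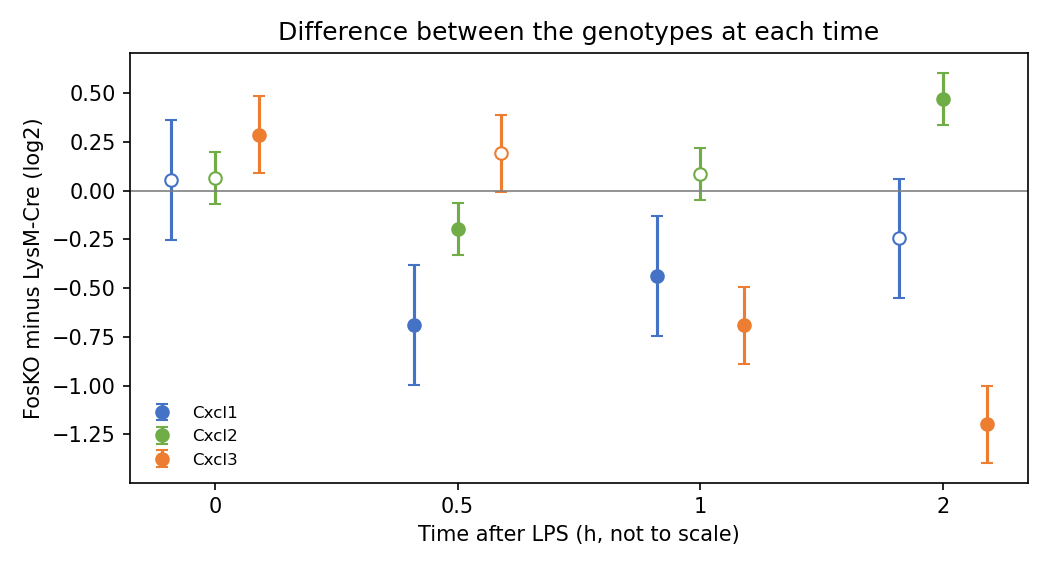
Difference in log2 expression, labelled FosKO minus LysM-Cre (vertical axis), at each time after LPS (horizontal axis, not to scale), with 95% confidence intervals from limma for 3 libraries against 3. Filled points were called at an adjusted p under 0.05 and open points were not, and Cxcl3 runs from 0.29 at 0 h to -1.20 at 2 h while Cxcl2 ends at 0.47.

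A difference at a given time can already be present before LPS, so the rise itself was compared between the genotypes by an interaction contrast. Few of the tested genes were called early (0.115% for the 0.5 h rise and 1.22% for the 1 h rise), and 15.0% were for the 2 h rise. Cxcl3 rose less in the libraries labelled FosKO at 1 h and at 2 h. Its rise over 0 h was smaller by a log2 difference of -0.98 at 1 h (SE 0.13, adjusted p = 1.91e-04, limma), and it ranked 30 by size of fall among the 13901 genes. At 2 h it ranked 9, with an adjusted p of 1.69e-07. At 0.5 h the Cxcl3 rises differed by -0.10 (interval -0.38 to 0.18, adjusted p = 0.923). Over the 12 left-out libraries this value ran from -0.18 to -0.03.

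Cxcl2 rose more in the libraries labelled FosKO at 2 h, by 0.41 (SE 0.09, adjusted p = 0.0037), though this was 0.22 and not called after quantile normalisation (adjusted p = 0.120). Its rises differed by -0.26 at 0.5 h (adjusted p = 0.684) and by 0.02 at 1 h (interval -0.17 to 0.21, adjusted p = 0.993). For Cxcl1 the rises differed by -0.74 at 0.5 h (interval -1.18 to -0.31, adjusted p = 0.491), -0.49 at 1 h (interval -0.93 to -0.06, adjusted p = 0.525) and -0.30 at 2 h (interval -0.73 to 0.14, adjusted p = 0.394). None of these was called. The Cxcl1 difference at 1 h was -0.17 without the low 18S libraries (adjusted p = 0.991), and that at 2 h was -0.18 without LysM-Cre 2 h replicate 2 and -0.48 without LysM-Cre 2 h replicate 1. At 0.5 h the call for Cxcl1 depended on the fit. It was called without LysM-Cre 0.5 h replicate 1 (-0.93, adjusted p = 0.0439) and with a replicate block within genotype (-0.74, adjusted p = 0.0105). Within the genotype 22 of 24 libraries correlated best with their own replicate number, but no source says what the numbers share.

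The steps located these differences in time. From 0.5 to 1 h, where 1.06% of tested genes were called for a difference in step, Cxcl3 rose less in the libraries labelled FosKO by -0.88 (SE 0.13, adjusted p = 7.94e-04, limma). From 1 to 2 h, where 11.6% were called, it again rose less, by -0.51 (adjusted p = 0.0160). Neither Cxcl3 step was called without the low 18S libraries (-0.93 with adjusted p = 0.0646, and -0.50 with adjusted p = 0.165). Cxcl2 fell less from 1 to 2 h in the libraries labelled FosKO, the steps differing by 0.39 (SE 0.09, adjusted p = 0.0071). That Cxcl2 difference was 0.24 after quantile normalisation (adjusted p = 0.118) and 0.29 without the low 18S libraries (adjusted p = 0.182). The Cxcl1 steps differed by 0.25 and 0.19 and were not called (adjusted p = 0.691 and 0.649). Without the low 18S libraries they differed by 0.52 and -0.13, again not called. With single libraries left out they ran from 0.083 (without LysM-Cre 1 h replicate 1) to 0.44 (without LysM-Cre 0.5 h replicate 1) and from 0.011 (without LysM-Cre 2 h replicate 1) to 0.36 (without LysM-Cre 1 h replicate 1).

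The difference between members within a library does not change with a shift of the whole library, so it compares the genes with each other. At 2 h, Cxcl3 minus Cxcl2 was -4.63 ± 0.03 (SD, n = 3) in LysM-Cre but -6.30 ± 0.03 under the label FosKO. Between the genotypes the difference was -1.67 (exact permutation test, two-sided, p = 0.1), Cxcl3 lying further below Cxcl2 in the libraries labelled FosKO. At 1 h the same pair gave -7.79 ± 0.15 and -8.56 ± 0.11, a difference of -0.78. Earlier the sign was the other way, at 0.22 before LPS and 0.39 at 0.5 h. The groups did not overlap at any of the 4 times. How many other gene pairs lack overlap was not counted, so no weight rests on it here or in the pairs below.

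Cxcl2 minus Cxcl1 was equal before LPS (2.88 and 2.87, difference 0.01, p = 0.9 by the exact permutation test). After LPS the libraries labelled FosKO had the larger gap, by 0.49, 0.52 and 0.72 at 0.5, 1 and 2 h, without overlap. For Cxcl3 minus Cxcl1 the libraries labelled FosKO were higher by 0.24 before LPS and by 0.88 at 0.5 h, overlapped at 1 h (-0.25, exact permutation p = 0.3) and were lower at 2 h (-0.96). The value at 1 h was -0.06 without LysM-Cre replicate 1, and over the 6 left-out libraries it ran from -0.36 to that value. The value before LPS ran from 0.16 to 0.28 over its 6 left-out libraries. With 3 libraries against 3 the exact test cannot give a p below 0.1, which adjusted over the 12 tests is 0.12, so none of these could be called.

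**Figure D3:**
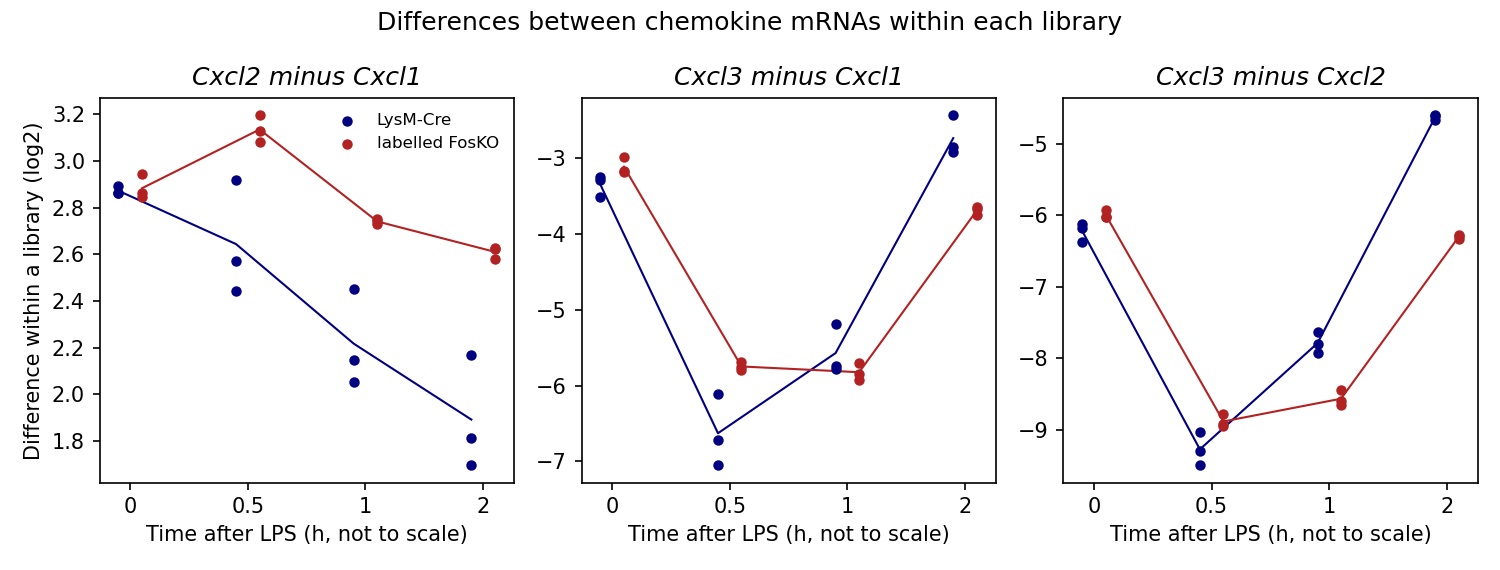
Within-library differences in log2 expression between pairs of the 3 chemokine genes (vertical axes, each on its own range) against hours after LPS (not to scale), with points for libraries and lines through group means. Cxcl3 minus Cxcl2 in the right panel is higher in the libraries labelled FosKO (red) than in LysM-Cre (blue) at 0 and 0.5 h and lower at 1 and 2 h, ending at -6.30 against -4.63.

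Markers of other cells were read beside these differences. The summed linear level of the neutrophil and precursor list (9 of 10 genes found, 5 tested) was 622 to 824 in LysM-Cre libraries and 1206 to 1878 in the libraries labelled FosKO. Csf3r, the G-CSF receptor, carried that sum and was 0.99 to 1.28 higher in the libraries labelled FosKO, while 4, 3, 4 and 4 of the 5 tested genes, among them S100a9 at -1.07 at 2 h, were called lower at the 4 times, where 35.4%, 40.9%, 33.9% and 44.6% of all tested genes were called in either direction. Ly6g and Elane, which mark neutrophils and their precursors, were near the lowest value of the table (-2.22) in every library. The summed macrophage list ran from 163239 to 192601 in LysM-Cre and from 158664 to 207540 in the libraries labelled FosKO. Of its 8 genes 3, 3, 3 and 4 were called higher in the latter at the 4 times, and 4, 1, 2 and 0 were called lower. Mertk, a receptor for apoptotic cells, differed most, by 0.97 at 0 h and 1.65 at 2 h, and Itgam, the integrin CD11b, by -0.19 and -0.04. Dendritic cell sums lay between 29.0 and 53.0 up to 1 h and separated at 2 h, with 111 to 122 in LysM-Cre against 85.1 to 87.8 in the libraries labelled FosKO. Zbtb46, a transcription factor gene of classical dendritic cells and 1 of the 2 tested on that list, differed by -0.96 at 2 h (adjusted p = 1.21e-04, limma) and by -0.85 in its rise (adjusted p = 0.0223). The other, Xcr1, differed by 0.04 at 2 h and was called only at 1 h (0.42), while Flt3 and Siglech were too low to be tested. Fibroblast sums were 28.9 to 80.0, and lymphocyte sums 6.57 to 8.19 with no gene tested. Of the 3 endothelial genes Kdr made most of a sum of 331 to 430 in LysM-Cre and 504 to 1039 in the libraries labelled FosKO. The part of these genes in the chemokine differences was not tested.

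Leaving aside the 3 chemokines themselves, the genes with the most similar time courses were taken as the 5 with the smallest root mean square distance over the 8 group means, each counted from its own LysM-Cre 0 h mean. The nearest to Cxcl1 were Socs3 (distance 0.31, r = 0.99), an inhibitor of cytokine receptor signalling, then Nfkbiz (0.41), Tnf (0.49), Tnfsf9 (0.62) and Dusp2 (0.70). The nearest to Cxcl2 were Nfkbiz (0.18, r = 0.99), an atypical IkB protein, and Tnf (0.21), followed by Tnfsf9 (0.40), Dusp2 (0.43) and Tnfaip3 (0.46). Cxcl1 and Cxcl2 were 0.45 apart (r = 0.98), a distance within the range of these lists.

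Cxcl3 had other neighbours. They were Rnd1 (0.29, r = 0.99), Il4i1 (0.29), a secreted amino acid oxidase, Tnfsf4 (0.34), the ligand OX40L, Jdp2 (0.36), an AP-1 family repressor, and Ccl22 (0.38), a chemokine for CCR4. Cxcl3 lay 1.88 from Cxcl1 (r = 0.66) and 1.84 from Cxcl2 (r = 0.55). Because the profiles include both genotypes, a lower level at 2 h in the libraries labelled FosKO is part of the likeness. It was -0.45 for Rnd1, -1.06 for Il4i1, -0.47 for Tnfsf4, -0.71 for Jdp2 and -1.85 for Ccl22. These correlations describe 8 means that share libraries and are given without a test.

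**Figure D4:**
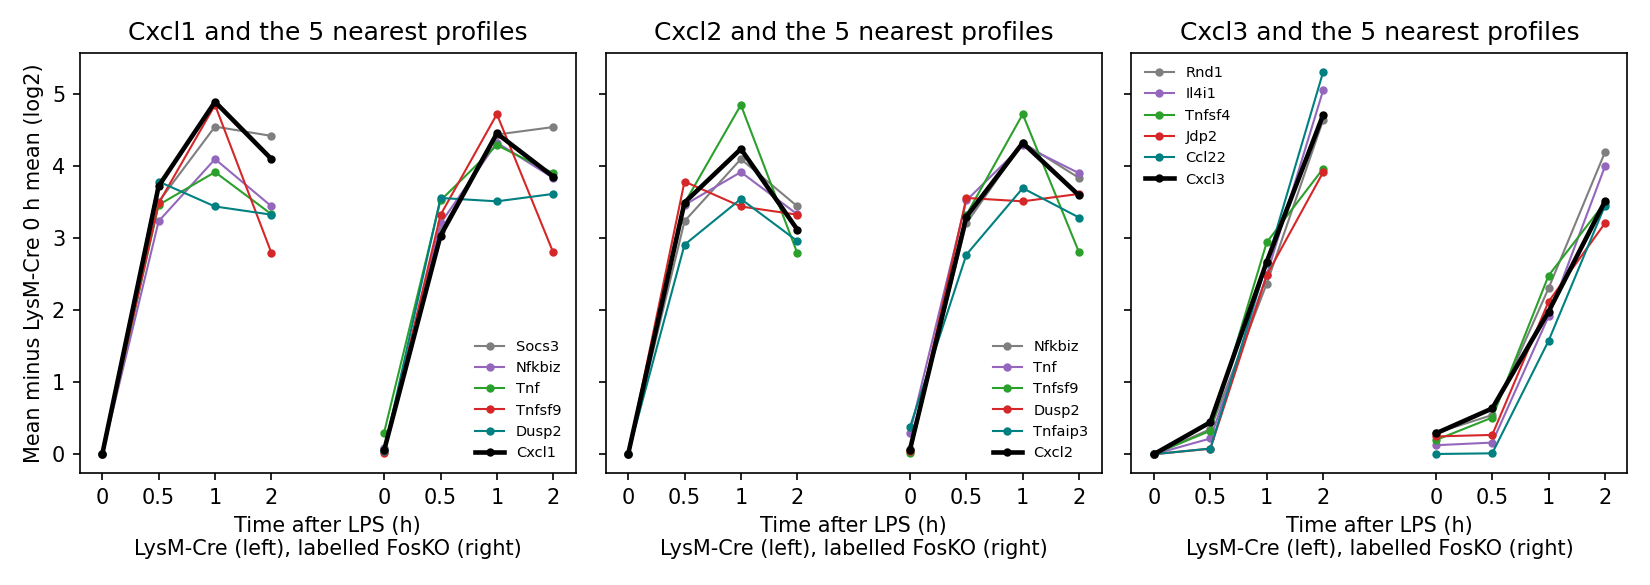
Mean log2 expression of each chemokine (black) and of the 5 genes nearest to it, each counted from its own LysM-Cre 0 h mean (vertical axis), against hours after LPS (horizontal axis) in LysM-Cre (left of each panel) and the libraries labelled FosKO (right). The curves around Cxcl1 and Cxcl2 peak or level off by 1 h, and those around Cxcl3 climb to 2 h, Cxcl3 itself reaching 4.71 in LysM-Cre.

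The regulators known for these genes were followed as lists. All 10 NF-kB subunits and regulators were higher at 1 h and at 2 h of LPS than at 0 h in both genotypes, with a median rise of 2.42 at 2 h in LysM-Cre against -0.02 over all tested genes. In these comparisons 35.8% and 60.8% of all tested genes were called in LysM-Cre, and 32.6% and 62.1% in the libraries labelled FosKO. Against LysM-Cre, the libraries labelled FosKO had 8 of 10 called higher at 0 h, 6 at 0.5 h, 3 higher and 1 lower at 1 h, and 5 higher and 1 lower at 2 h (medians 0.26, 0.15, 0.09 and 0.14). Over all tested genes 35.4%, 40.9%, 33.9% and 44.6% were called at these times, so that 4 of 10 at 1 h lay near the share of all genes. The gene lower at 1 and 2 h was Bcl3, a nuclear IkB protein, at -0.44 and -0.40. In the rise over 0 h at 2 h, Bcl3 (-0.78), Relb (-0.40) and Nfkbia (-0.24) rose less and Nfkbiz (0.32), Rel (0.26) and Rela (0.19) rose more in the libraries labelled FosKO.

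Of 9 factors of mRNA decay and stability, the libraries labelled FosKO had 1 called lower before LPS, 6 at 0.5 h, 2 higher and 2 lower at 1 h, and 3 in each direction at 2 h (medians -0.03, -0.10, -0.09 and 0.09), beside the same 35.4%, 40.9%, 33.9% and 44.6% of all genes. The 4 of 9 at 1 h were again near that share. Zfp36, which encodes tristetraprolin, was lower at 0.5 h (-0.18) and higher at 1 h (0.57) and 2 h (0.30). Its relative Zfp36l2 was 0.48 higher at 1 h and 0.27 at 2 h. Another relative, Zfp36l1, was 1.02 higher at 2 h, and in LysM-Cre it had fallen by 1.25 from 0 h by then. Zc3h12a, the endonuclease Regnase-1, differed by -0.12, -0.12 and -0.14 at 0.5, 1 and 2 h. Hnrnpd, which encodes the AU-rich element binding protein AUF1, differed by -0.09, -0.12 and -0.10 at the same times.

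Other secreted factors that recruit neutrophils or raise their number gave another comparison. Of 8 such genes 7 were tested, and all 7 rose with LPS in LysM-Cre at each time, beside 7.24%, 35.8% and 60.8% of all genes called in either direction. In the libraries labelled FosKO 5 were called higher at 0 h, 4 higher and 2 lower at 0.5 h, 5 higher and 1 lower at 1 h, and 6 higher and 1 lower at 2 h (medians 0.30, 0.37, 0.27 and 0.55), where all genes gave 35.4%, 40.9%, 33.9% and 44.6%. The gene lower at every LPS time was Csf2, the cytokine GM-CSF, at -1.07, -1.43 and -1.31. Tnf was 0.57 higher at 2 h, Il1a 0.79, Il1b 0.42, Ccl2 0.50, Ccl3 0.74 and Ccl4 0.55. Cxcl3 and Csf2 were thus both lower at 1 and 2 h, while Cxcl2 was higher at 2 h with the other 6.

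The related ligands and the receptors were mostly below the level needed for a test. Cxcl5, another ELR chemokine of the cluster, lay between 0.31 and 0.99 in all 24 libraries. Ppbp, a platelet chemokine gene, was called only before LPS, with -0.49 in the libraries labelled FosKO against LysM-Cre. Pf4, the platelet factor 4 gene, which lacks the ELR motif, differed by -0.32, -0.23, -0.33 and -0.27 and was called at each time. Of all tested genes 35.4%, 40.9%, 33.9% and 44.6% were called at 0, 0.5, 1 and 2 h. None of the receptor genes Cxcr1, Cxcr2 and Ackr1 was tested.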

How the data were processed

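RNA was sequenced from BMDMs of 2 genotypes at 4 times, 3 libraries each. The authors deposited 1 table of normalised log2 values per gene and library (-2.22 to 19.39), resembling a regularised log, which would pull genes with few reads towards their mean and understate their differences. Per the labels, STAR 2.5.2a, RSEM 1.2.31 and DESeq2 1.16.1 were used on GRCm38. The study's methods name RefSeq genes, whereas the table has Ensembl identifiers. Whole reads could not be recovered, and the study's methods give only a typical read yield. The depth of each library is therefore unknown, and errors come from the scatter of libraries alone.

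Values were used as deposited, without the pseudocount of 1 that had been planned for unlogged values. Genes were tested if 2 to the power of the value reached 5 in 3 or more libraries (13901 of 24273, all 3 members among them). All 24 libraries entered 1 limma 3.58.1 fit (R 4.3.3, trended empirical Bayes, 8 group means, 16 residual degrees of freedom), checked on simulated data. From it 19 comparisons were drawn, each adjusted by the Benjamini-Hochberg method over all tested genes and called at an adjusted p under 0.05. Differences between members within a library were tested by exact permutation, two-sided. Intervals are 95% confidence intervals.

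Members and gene lists were chosen with earlier results of these data known. The named genes are the 3 chemokines, Fos, Lyz2, members of the lists with the largest values in a comparison, and the 5 genes nearest to each member over 8 group means. Other list members named for their known roles, such as Zc3h12a, Hnrnpd and Il1b, were chosen after their values were seen. Gene positions and transcripts are from GENCODE and promoters from RefSeq, both on GRCm38. The alternatives were quantile normalisation, TMM factors, a pseudocount of 1, no filter, no variance trend, only the groups compared, replicate blocks, 18S as a term or a filter, and leaving out each library.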

Additional observations from a re-analysis of the deposited data

Results flagged for a closer look

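Both Cxcl2 and Cxcl3 gave a rise or a step that differed between the genotypes by an interaction contrast, and Cxcl1 gave none that passed in the fit of all libraries without a replicate block. Over all tested genes, 0.115%, 1.22% and 15.0% were called for the differences in rise at 0.5, 1 and 2 h. For the differences in step, 1.06% were called from 0.5 to 1 h and 11.6% from 1 to 2 h. With a replicate block within genotype (-0.74, adjusted p = 0.0105) or without LysM-Cre 0.5 h replicate 1 (-0.93, adjusted p = 0.0439), the Cxcl1 rise at 0.5 h did pass. For Cxcl2 the rise over 0 h at 2 h of LPS was larger in the libraries labelled FosKO by a log2 difference of 0.41 (SE 0.09, adjusted p = 0.0037, limma), and its step from 1 to 2 h differed by 0.39 (adjusted p = 0.0071). Neither passed after quantile normalisation (0.22 with adjusted p = 0.120, and 0.24 with adjusted p = 0.118). The Cxcl2 step differed by 0.29 without the low 18S libraries and did not pass there either. For Cxcl3 the rise over 0 h differed by -0.98 at 1 h (adjusted p = 1.91e-04) and by -1.49 at 2 h (SE 0.13, adjusted p = 1.69e-07). The Cxcl3 steps differed by -0.88 from 0.5 to 1 h (adjusted p = 7.94e-04) and by -0.51 from 1 to 2 h (adjusted p = 0.0160), neither of which passed without the low 18S libraries (adjusted p = 0.0646 and 0.165). In the direction of each value, all 3 Cxcl3 libraries labelled FosKO lay below all 3 of LysM-Cre at 1 and 2 h, and all 3 Cxcl2 libraries lay above at 2 h. How many of all tested genes lay apart in this way was not counted.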

How the results depend on the processing

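For the 3 chemokines, direction and call were kept in 538 comparisons under the other settings, against 12 calls lost, 4 gained and 4 directions turned, and in 415 with 1 library left out, against 13 lost, 2 gained and 2 turned. The Cxcl3 differences at 1 and 2 h, in level and in rise, were called under every setting run. Scaling moved the median of all genes by no more than 0.068 (quantile normalisation, -0.068 for the 2 h response in the libraries labelled FosKO). The cause of each change below was not tested, except that fits of fewer libraries estimate the spread from less.

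Quantile normalisation turned Cxcl2 at 0 h (-0.0024), at 1 h (-0.018), in the difference in its rise at 1 h (-0.016) and in Cxcl2 minus Cxcl1 at 0 h (-0.068), none of them called. It gave calls for Cxcl3 at 0.5 h (0.26) and Cxcl1 at 2 h (-0.36), lost those for the differences of Cxcl2 in rise at 2 h (0.22) and in step from 1 to 2 h (0.24), and moved Cxcl3 minus Cxcl2 at 2 h to -1.35. Without the low 18S libraries, calls were lost for Cxcl2 at 0.5 h (-0.17), Cxcl1 at 1 h (-0.11), the Cxcl1 step from 1 to 2 h in LysM-Cre (-0.46), the FosKO rise of Cxcl3 at 0.5 h (0.37), and the differences in step of Cxcl3 (-0.93 and -0.50) and of Cxcl2 from 1 to 2 h (0.29), and that of Cxcl1 from 1 to 2 h turned to -0.13. With only the groups compared in the fit, the calls for Cxcl3 at 0 h (0.29) and in its 0.5 h rise (0.44 in LysM-Cre, 0.35 in FosKO) were lost.

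Leaving out single libraries moved Cxcl3 at 0 h between 0.22 and 0.33, Cxcl2 at 0.5 h between -0.25 and -0.17, Cxcl1 at 1 h between -0.61 and -0.34, Cxcl1 at 2 h between -0.43 and -0.13, the FosKO rise of Cxcl3 at 0.5 h between 0.31 and 0.42, and the difference in rise of Cxcl1 at 0.5 h between -0.93 and -0.61. It moved the uncalled difference in rise of Cxcl2 at 1 h between -0.029 and 0.080 (-0.0040 without FosKO 0 h replicate 2, -0.029 without LysM-Cre 1 h replicate 1) and Cxcl2 minus Cxcl1 at 0 h between -0.019 and 0.030 (-0.019 without FosKO 0 h replicate 3).

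Numbers of called genes moved by over 1.5 times as follows. Without the low 18S libraries there were 2994 in place of 4708 between the genotypes at 1 h, 3009 in place of 4970 for the LysM-Cre rise at 1 h, 2010 in place of 3725 for its step from 0.5 to 1 h, 9 in place of 16 and 93 in place of 169 for the differences in rise at 0.5 and 1 h, and 59 in place of 147 and 611 in place of 1619 for those in step. With only the groups compared there were 301 in place of 823 for the FosKO rise at 0.5 h, 2471 in place of 3819 for its step from 0.5 to 1 h, and 6, 112 and 75 for the differences in rise at 0.5 h, in rise at 1 h and in the first step. Quantile normalisation gave 25 for the first of these. Left-out libraries gave 542 to 960 for the FosKO rise at 0.5 h, 9 to 24 for the difference in rise at 0.5 h and 96 to 145 for that in the first step, the lowest values without FosKO 0.5 h replicate 3 and LysM-Cre 0.5 h replicates 2 or 3.

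No source says whether replicate numbers pair the libraries. Same-numbered libraries of 1 genotype correlated in their deviations at a median of 0.06 (-0.25 to 0.71, over 0.1 in 12 of 36 pairs). Libraries of 1 genotype with other numbers had a median of -0.03 (over 0.1 in 4 of 72 pairs). Of the 3 numbers in its genotype, 22 of 24 libraries correlated best with their own. With the number as a replicate block across all libraries no call of the 3 chemokines changed. With a replicate block within genotype, calls were gained for the difference in rise of Cxcl1 at 0.5 h (-0.74, adjusted p = 0.0105, limma) and for the difference in step of Cxcl2 from 0.5 to 1 h (0.28, adjusted p = 0.0188), and called genes rose from 16 to 25 and from 147 to 264 in these comparisons.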

Other observations

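The other protein-coding genes within 1 Mb of a member gave no common direction. Of 13 such genes 7 were tested, and in the libraries labelled FosKO 1 was called higher and 3 lower at 0 h, 1 higher and 2 lower at both 0.5 and 1 h, and 2 in each direction at 2 h (medians -0.18, -0.23, -0.14 and -0.07, against -0.0032 to 0.0040 over all tested genes). The share of all tested genes called at these times was 35.4%, 40.9%, 33.9% and 44.6%. Areg, which encodes the epidermal growth factor ligand amphiregulin, was 1.02 higher at 2 h. Ankrd17, an ankyrin repeat protein gene, was 0.41 higher at that time. Afp, the alpha-fetoprotein gene, differed by -0.48, -0.43, -0.61 and -0.47 at the 4 times.

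The longest run of letters shared by the 3 promoters, GGGAATTTCCC, occurred in the promoters of 11 further genes, a list made after the promoters had been read. Only 4 of these were tested. In LysM-Cre none was called higher after LPS, while 1 was called lower at 0.5 h, and 2 were called lower at both 1 and 2 h (medians -0.08, -0.25 and -0.06, against 0.0027, 2.68e-04 and -0.02 over all tested genes, of which 7.24%, 35.8% and 60.8% were called). The 2 were Il16, the gene of a cytokine that attracts CD4+ cells, at -0.69 and -1.66 at 1 and 2 h, and Zfp84, a zinc finger protein gene, at -0.59 and -0.22. Hpn and Lyzl4 differed from 0 h by 0.04 to 0.26 at the 3 times.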
